A study of Homo sapiens with 60 samples.

Results

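Histone genes were followed through SW1783 cells, an established human astrocytoma line, after 24 h with hot-water extracts of herbs or with wortmannin. The genes were taken by name: protein-coding genes whose symbol starts with H1-, H2A, H2B, H3C, H3-, H4C or H4-, or with an older form of these names. Of 134 genes with such a symbol, 44 were left out because they were not annotated as protein-coding, which left 90 histone genes among 60675 genes in the table. They fell into 72 replication-dependent cluster genes, 9 polyadenylated variants and 9 other genes that are single-copy or known from the germ line. Counts sufficed to test 38 of the 90, namely 30 cluster genes and 8 variants, out of 17569 genes tested in all. None of the 9 other genes passed the filter on low counts, 4 of the 90 genes had no count in any library, and the untested genes averaged at most 0.181 CPM (counts scaled to the size of the library, with TMM factors).

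The 60 libraries formed 20 groups of 3. Wortmannin, an inhibitor of phosphoinositide 3-kinase that served as the positive control, was used at 10 µM. Extracts of fresh ginger (Zingiberis Rhizoma Recens), dried ginger (Zingiberis Rhizoma), Pinellia (Pinelliae Tuber) and jujube (Zizyphi Fructus) were each used at 20, 100 and 500 µg/mL, called low, medium and high below. Scutellaria (Scutellariae Radix) was used at 16.4, 82 and 410 µg/mL and Coptis (Coptidis Rhizoma) at 0.8, 4 and 20 µg/mL. According to the design text, an extract whose dose for 20% inhibition lay below 500 µg/mL was given at that dose and at its dilutions, which by that rule makes 410 µg/mL of Scutellaria and 20 µg/mL of Coptis such doses. The vehicle was dimethyl sulfoxide (DMSO), given as 0.1% in the sample labels and as 2% in the design text, and the solvent content of the treated groups is not stated. All groups came from this 1 cell line. The description codes set the vehicle, wortmannin, the gingers, Pinellia with Scutellaria, and Coptis with jujube apart by their first part. This part is a number, and the vehicle has the number of wortmannin with a letter before it. Such a first part and the treatment cannot be told apart in a comparison with the vehicle, whereas the doses of an extract share a number.

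Histones package DNA into nucleosomes, and the bulk of them is made during S phase from the replication-dependent genes, which lie together in clusters. The mRNAs of these genes end in a conserved stem-loop instead of a poly(A) tail. The stem-loop is bound by SLBP, and these mRNAs are degraded when DNA synthesis stops. Variant histones such as H2A.Z, H2A.X and the replacement form of H3 are encoded outside the clusters, carry poly(A) tails and are made through the whole cell cycle, and H2AX is known to give both kinds of mRNA. Some cluster genes, among them H1-2, H2AC6, H2BC4, H2BC5, H2BC12 and H2BC21, are also known to give polyadenylated mRNAs in cells that have left the cycle.

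An mRNA that ends in the stem-loop without a poly(A) tail can be missed by a poly(A)-based library. The letters of the stem-loop are shown for 5 genes whose values are described below, among them the variant H2AX. Capitals mark the 16 bases of stem, loop and stem, with 7 flanking bases on each side, on the strand of the gene, from GENCODE v29 transcripts on GRCh38.
H2AC6: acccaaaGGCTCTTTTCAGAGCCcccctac
H2BC21: ctccaaaGGCTCTTTTCAGAGCCacccacc
H2BC5: tcccaaaGGCTCTTTTAAGAGCCacgcatg
H4C8: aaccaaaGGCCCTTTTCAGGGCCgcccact
H2AX: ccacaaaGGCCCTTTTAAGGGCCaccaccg

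The capitals lie at chr6:26124669-26124684 on the plus strand for H2AC6, chr1:149886188-149886203 on the minus strand for H2BC21, chr6:26158587-26158602 on the plus strand for H2BC5, chr6:26285131-26285146 on the minus strand for H4C8 and chr11:119094898-119094913 on the minus strand for H2AX. Each lies in the 3' untranslated region, between 36 and 56 bases after the stop codon. A stem-loop of this kind within 100 bases after the stop codon was found in 31 of 19462 coding genes searched, or 0.159%. Of these, 29 were histone genes (28 cluster genes and the variant H2AX), and the others were NIN and RBM38. The letters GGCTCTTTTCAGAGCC occurred in 17 histone genes, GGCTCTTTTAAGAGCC and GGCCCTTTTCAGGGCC in 5 each, and 2 further forms in 1 each. The search could not find the element in 34 of the 72 cluster genes because their annotated model ended at the stop codon. Of the 30 tested cluster genes, 20 held the element, and in 15 of these the annotated transcript ran on for more than 100 bases past it, as a polyadenylated form does. In 30 of the 42 untested cluster genes, but in 4 of the 30 tested ones, the model ended at the stop codon.

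Library totals were 20185782 to 32788018 counts, and 3 counts, the limit that a count of 0 allows, correspond to 0.0915 to 0.149 CPM. The TMM scaling factors were 0.799 to 1.04, and the 3 lowest belonged to the high dose of Coptis. Without these factors the median log2 fold change of all genes under the high dose of Coptis shifted by -0.32 and under its medium dose by -0.14, so changes under Coptis are given relative to the median gene. Of the astrocytic markers, GFAP, S100B, AQP4 and ALDH1L1 did not exceed 0.339 CPM in any library, whereas VIM, CD44 and SOX9 were present at 58.2 CPM or more and NES lay between 1.66 and 11.7 CPM. The 8 astrocytic markers summed to 10796 to 11465.5 CPM under the high dose of Coptis, 6406 to 6591 CPM under that of Scutellaria and 7868 to 8175 CPM under that of Pinellia, against 6926 to 7289 CPM in the vehicle. The 5 immune markers summed to 231 to 249.7 CPM under the high dose of Coptis and 147 to 154 CPM in the vehicle, mostly CD68, with CD3E and AIF1 near 0. The 3 epithelial markers, nearly all KRT18, with EPCAM and CDH1 at most 0.293 CPM, summed to 68.3 to 72.7 CPM under the high dose of Scutellaria, 160 to 175 CPM under that of Coptis, 151 to 172 CPM under that of Pinellia, 132 to 143 CPM under that of fresh and 123 to 135 CPM under that of dried ginger, against 212 to 222 CPM in the vehicle. The part of these markers in the results was not tested. In 3 libraries a list of 17 RNAs without poly(A) tails summed to 82.9 CPM (fresh ginger high, replicate 2), 49.2 CPM (dried ginger low, replicate 1) and 43.9 CPM (jujube low, replicate 2). No 2 replicates were identical. The labels do not tell whether replicates came from separate cultures, and the p-values then describe the spread between libraries, which may be technical. In these bulk libraries, fewer cells making histone mRNA and less of it per cell cannot be told apart.

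The variants were the abundant histone mRNAs in these libraries. Per kilobase of exon and averaged over the 60 libraries, H3-3A, which encodes the replacement form of H3, stood at 70.9 CPM, and H3-3B, which encodes the same protein, at 54.0 CPM. H2AZ1 and H2AZ2, which encode the H2A.Z forms found at promoters, stood at 62.8 and 41.0 CPM per kilobase. H2AX, which is phosphorylated next to DNA breaks, was at 30.2 CPM per kilobase, the linker histone H1-10 at 20.9 and H2AJ, an H2A variant known from senescent cells, at 3.56. These lengths join the exons of all annotated transcripts, which lowers the values of genes with many transcripts. The ninth variant, H3-5, was too low to test.

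The 30 tested cluster genes spanned 7.92 to 0.144 CPM per kilobase, from H1-2 to H4C16, as the plot of levels by group shows. H1-2, a replication-dependent linker histone, was followed by H2BC12 at 5.19, H2AC6 at 5.17, HIST2H2AA4 at 4.21 and H2BC5 at 3.14 CPM per kilobase. The mean count per library was 223 for H2AC6, 131 for H1-2 and 107 for H2BC21, against 5740 for H3-3A and 8511 for H3-3B, so folds of cluster genes rest on far fewer counts. For 20 of the 30 tested cluster genes the lowest of the 20 group means was that of the high dose of Coptis, and for 6 that of the high dose of Scutellaria. The highest mean was that of wortmannin for 9 genes and of the high dose of Pinellia for 6. Among the 8 tested variants the lowest mean was under the high dose of Coptis for 3 and in the vehicle for 2.

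**Figure D1:**
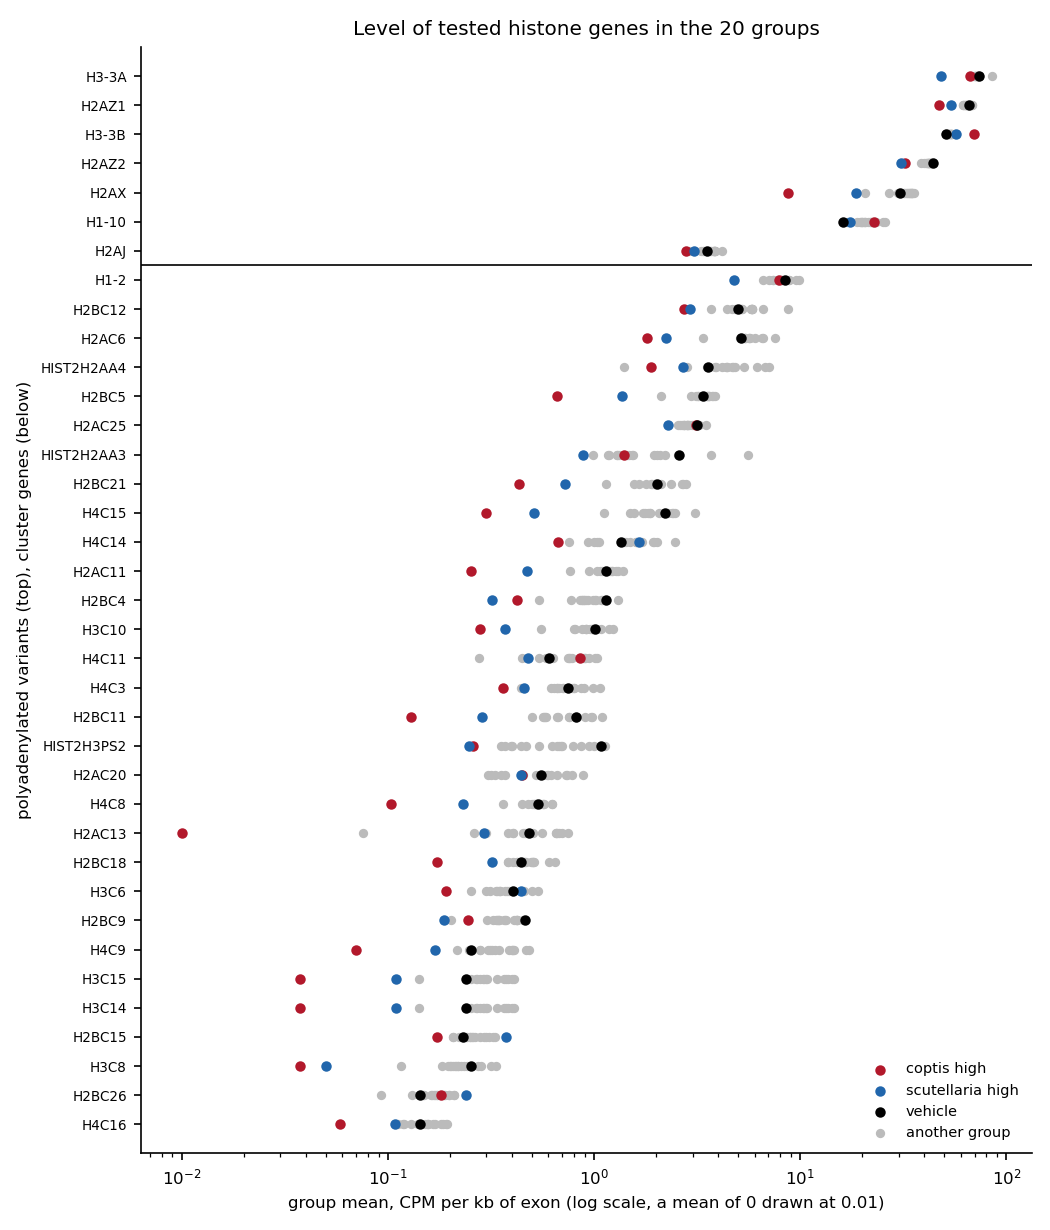
Group means of tested histone genes in CPM per kilobase of exon (log axis), variants above the line and cluster genes below it, with the high doses of Coptis and Scutellaria, the vehicle and the other groups in separate colours. The variants shown, H2AJ excepted, lie to the right of every cluster gene on average, and the red and blue points of most cluster genes lie left of the black vehicle point.

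Summed over the 72 cluster genes, histone mRNA was lowest under the high doses of Coptis and Scutellaria. The sums were 24.0, 25.9 and 22.1 CPM under the high dose of Coptis and 29.5, 28.9 and 30.3 CPM under the high dose of Scutellaria, against 53.0, 53.4 and 52.9 CPM in the vehicle. These 6 libraries lay below the vehicle by about the same amount within each group, and the group means were 0.452 and 0.557 of the vehicle mean. The medium dose of Coptis gave 37.2, 35.4 and 35.4 CPM, between its high dose and its low dose with 51.1, 48.8 and 50.5 CPM. Scutellaria gave 47.5, 50.6 and 49.5 CPM at the medium dose and 50.6, 51.2 and 50.6 CPM at the low dose, so all 6 of these libraries lay below the vehicle, by less than at the high dose.

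At the other end, the cluster sum was 68.4, 62.6 and 61.3 CPM under the high dose of Pinellia, 65.1, 62.1 and 60.5 CPM under wortmannin, 59.8, 58.5 and 61.5 CPM under the high dose of jujube and 60.04, 57.9 and 54.3 CPM under the high dose of dried ginger. Each of these 12 libraries lay above the 3 vehicle libraries. The high dose of fresh ginger gave 54.2, 54.4 and 56.7 CPM. The variants summed to far more and moved less: 1179.5, 1189.5 and 1168.8 CPM under the high dose of Coptis and 959, 878 and 934 CPM under the high dose of Scutellaria, against 1056, 1068 and 1087 CPM in the vehicle. Of the summed cluster and variant mRNA, the cluster genes made up 1.99% under the high dose of Coptis, 3.10% under the high dose of Scutellaria and 4.73% in the vehicle. The sums describe the libraries and were not tested.

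**Figure D2:**
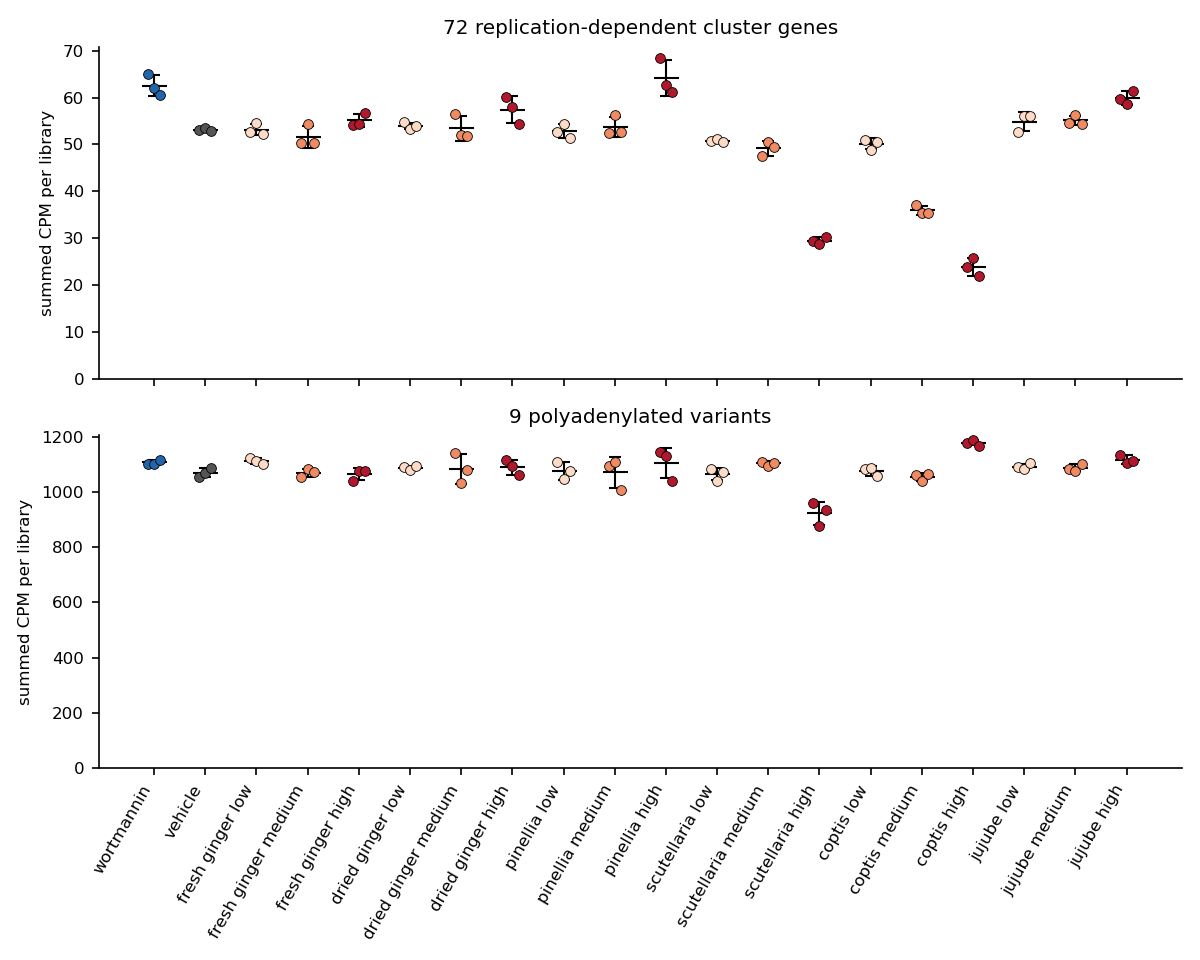
Summed CPM of the 72 cluster genes (upper panel) and the 9 polyadenylated variants (lower panel) in every library, with the mean and SD of each group (n = 3). The cluster sum of the vehicle lies at 53.1 CPM and that of the high dose of Coptis at 24.0 CPM, whereas the variant sums of all groups lie between 923 and 1179.3 CPM.

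Under the high dose of Coptis (20 µg/mL), 25 of the 38 tested histone genes fell and 3 rose against the vehicle. Of all 17569 genes tested, 75.2% were called in this comparison, 37.9% lower and 37.2% higher, by edgeR's quasi-likelihood test with Benjamini-Hochberg adjustment under 0.05. All 20 cluster genes called were lower, and the median log2 fold change of the 30 cluster genes was -1.40, against -0.03 over all tested genes. H3C14 and H3C15, which hold equal values in every library, both count among the 20. The 15 cluster genes with a mean of at least 1 CPM had a median of -1.36. The 8 variants were all called, 5 lower and 3 higher, with a median of -0.24.

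H2AC6, which encodes a core H2A, stood at 2.86, 3.23 and 2.93 CPM under the high dose of Coptis, against 8.77, 8.33 and 8.65 CPM in the vehicle. The groups were far apart, and the log2 fold change was -1.51 ± 0.12 (SE, n = 3 each, adjusted p = 2.18e-16, edgeR). H2BC21, a core H2B gene, had 0.703, 1.37 and 0.755 CPM under Coptis, against 4.80, 4.26 and 4.18 CPM in the vehicle. The second Coptis library was the highest of its group but lay well below every vehicle library, with a log2 fold change of -2.24 ± 0.17 (adjusted p = 3.42e-17, edgeR). H2BC5, another core H2B gene, had 0.747, 0.489 and 0.489 CPM under Coptis, against 2.98, 2.83 and 3.00 CPM in the vehicle. It fell by 2.33 on the log2 scale (SE 0.19, adjusted p = 1.38e-16, edgeR).

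Among the largest falls was that of H4C15, a core H4 gene, with 0.835, 0.489 and 0.40 CPM under Coptis and 3.96, 4.38 and 4.47 CPM in the vehicle (log2 fold change -2.88 ± 0.55, adjusted p = 6.64e-06, edgeR). It shares its coding sequence with H4C14, so this fold depends on how reads were allotted between them. With both summed the fall was 1.88 (adjusted p = 2.38e-19, edgeR), less than that of H2BC21 or H2BC5. The sums are given further on. H2AC13, H3C8 and H2BC11 had few counts. H2AC13, a core H2A gene, was listed at 0 in all 3 Coptis libraries and had 3, 9 and 5 counts in the vehicle libraries, so both groups lay near the limit of 3 counts and no fold is given. H3C8, a core H3 gene, had 3, 1 and 2 counts under Coptis and 13, 8 and 19 in the vehicle, and its log2 fold change was -2.63 ± 0.53 (adjusted p = 1.53e-05, edgeR). H2BC11 had 4, 3 and 1 counts under Coptis and 22, 19 and 12 in the vehicle, with a log2 fold change of -2.63 ± 0.45 (adjusted p = 6.92e-07, edgeR). All Coptis libraries lay below all vehicle libraries in these genes. H4C8, named here for its stem-loop letters, had 0.264, 0.0977 and 0.311 CPM under Coptis and 1.31, 1.16 and 0.998 CPM in the vehicle. Its log2 fold change was -2.32 ± 0.32 (adjusted p = 4.41e-09, edgeR). H4C8 also had few counts, with the second Coptis library below the limit of 3 counts (0.117 CPM by its library total).

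Of the 6 cluster genes known to give polyadenylated mRNAs, 5 fell, with a median of -1.47. H2BC4 fell by 1.43 (SE 0.34) and H2BC12 by 0.89 (SE 0.23) on the log2 scale, with adjusted p of 0.000185 and 0.000587 by edgeR. The sixth, H1-2, had 4.75, 5.38 and 5.02 CPM under Coptis and 6.39, 4.65 and 5.23 CPM in the vehicle. These groups overlapped, and its log2 fold change was -0.10 ± 0.14 (adjusted p = 0.541, edgeR). By the structure of their models, 12 of the 15 cluster genes whose transcripts ran more than 100 bases past the stem-loop were called lower (median -1.51), as were 2 of 5 that ended within 100 bases of it (median -0.93), 2 of 4 without it that ended at the stop codon (median -0.63) and 4 of 6 without it that ended elsewhere (median -1.46). The 5 include H2BC5, H2AC13, near the limit of 3 counts, and HIST2H2AA3 with HIST2H2AA4, which share a coding sequence. Summed, these copies were called lower (-0.89, adjusted p = 3.64e-05, edgeR), so the counts depend in part on how reads were allotted. H3C14 and H3C15 are both among the 15, and H4C14 and H4C15 among the 6. These groups of genes were not compared by a test.

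Among the variants, H2AX moved most. It had 12.7, 15.2 and 14.4 CPM under the high dose of Coptis, against 41.7, 50.6 and 54.4 CPM in the vehicle, a log2 fold change of -1.80 ± 0.07 (adjusted p = 8.44e-29, edgeR). Every Coptis library lay below the range of the vehicle by more than either group's spread.

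The other variants changed less. H3-3B had 429, 437 and 414 CPM under Coptis and 314, 313 and 312 CPM in the vehicle, a log2 fold change of 0.45 ± 0.03 (adjusted p = 3.23e-18, edgeR). H2AZ1 fell by 0.48 (SE 0.06), H2AZ2 by 0.46 (SE 0.04) and H2AJ by 0.34 (SE 0.09) on the log2 scale, with adjusted p of 1.68e-09, 3.79e-15 and 0.000575 by edgeR. H3-3A, at 207, 219 and 204 CPM under Coptis and 228, 224 and 239 CPM in the vehicle, fell by 0.13 (adjusted p = 0.00642, edgeR). Without vehicle replicate 3 this call was lost (-0.10, adjusted p = 0.0567, edgeR). H1-10 rose by 0.50 ± 0.12 (adjusted p = 0.000209, edgeR) but by 0.19 with library totals in place of TMM, where it was not called (adjusted p = 0.159). H3-3B kept its direction under library totals, at 0.13 (adjusted p = 0.000244, edgeR).

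The fall was present at the medium dose of Coptis (4 µg/mL) and was not called at the low dose (0.8 µg/mL). At the medium dose 14 of the 38 genes fell and 2 rose, where 20.2% of all genes were called lower and 21% higher (41.2% in all). Of the 30 cluster genes 10 were lower and none higher, with a median of -0.60, against 0.01 over all genes. H2AC6 had 5.54, 5.59 and 5.74 CPM at the medium dose and fell by 0.61 (SE 0.10, adjusted p = 2.87e-06, edgeR). H2BC21 had 2.58, 2.67 and 2.23 CPM and fell by 0.83 (SE 0.14, adjusted p = 1.26e-06, edgeR), and H2BC5 had 2.02, 1.85 and 1.66 CPM and fell by 0.67 (SE 0.14, adjusted p = 0.000103, edgeR). All 3 genes lay between the levels of the high dose and the vehicle at the medium dose, without overlap. Of the 16 calls at this dose, 6 were lost on leaving out 1 library, among them H2BC4 without the third library of the medium dose (-0.81, adjusted p = 0.0529, edgeR).

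H2AX had 32.6, 33.2 and 33.6 CPM at the medium dose and fell by 0.56 (SE 0.06, adjusted p = 7.61e-11, edgeR). H3-3B had 327, 317 and 329.8 CPM at the medium dose and was not called there. At the low dose no histone gene was called by edgeR or by DESeq2, 2 of 38 had an unadjusted p under 0.05, and 0.683% of all genes were called, 0.433% higher and 0.25% lower. H2AC6, with 9.06, 8.05 and 8.69 CPM, overlapped the vehicle at the low dose.

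**Figure D3:**
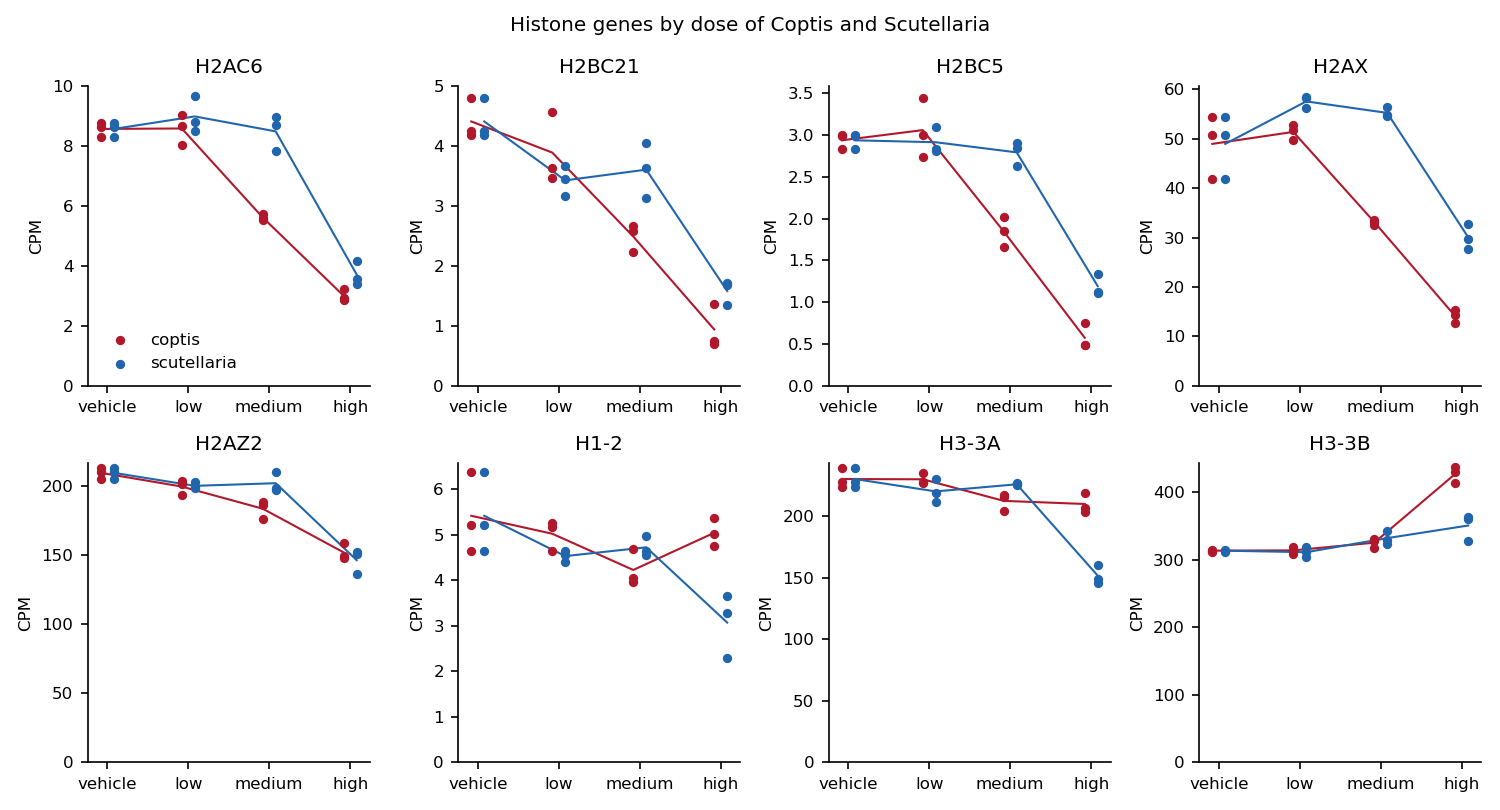
CPM of 8 histone genes in the vehicle and at the low, medium and high dose of Coptis (red) and Scutellaria (blue), with 3 libraries per group as points and lines through the means. H2AC6, H2BC21, H2BC5 and H2AX are lower at the medium and high doses of Coptis and at the high dose of Scutellaria, while H3-3B lies at 427 CPM under the high dose of Coptis and 350.3 CPM under that of Scutellaria, against 313 CPM in the vehicle.

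Set against the low dose of Coptis, which shares its code number, the high dose gave similar counts of calls. Of the 38 genes 24 were lower and 2 higher, where 38.9% and 36.9% of all genes were (75.8% in all), and the cluster median was -1.24. H2AC6 fell by 1.51 (SE 0.12), H2BC21 by 2.06 (SE 0.17), H2BC5 by 2.39 (SE 0.18) and H2AX by 1.87 (SE 0.07) on the log2 scale. H1-10 was not among the genes called here, with 34.2, 30.1 and 38.8 CPM at the high dose and 33.3, 32.4 and 30.9 CPM at the low dose.

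Under the high dose of Scutellaria (410 µg/mL), 22 of the 38 genes fell and 2 rose against the vehicle, where 28.5% of all genes were called lower and 30.3% higher (58.8% in all). Of the 30 cluster genes 17 were lower and 1 higher. H3C14 and H3C15, which hold equal values in every library, both count among the 17. They were not called by DESeq2 (-1.12, adjusted p = 0.051). The cluster median was -0.96, against 0.01 over all genes, and -1.198 for the 15 cluster genes with a mean of at least 1 CPM. All 6 cluster genes known to give polyadenylated mRNAs were lower, with a median of -1.25.

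H2AC6 had 3.40, 3.58 and 4.17 CPM under the high dose of Scutellaria, against 8.77, 8.33 and 8.65 CPM in the vehicle, and fell by 1.198 (SE 0.11, adjusted p = 7.48e-14, edgeR). H2BC21 had 1.72, 1.35 and 1.69 CPM and fell by 1.47 (SE 0.15, adjusted p = 7.73e-13, edgeR). H2BC5 had 1.34, 1.12 and 1.13 CPM and fell by 1.297 (SE 0.15, adjusted p = 1.12e-10, edgeR). No library of these groups overlapped the vehicle. H2BC4, at 0.267, 0.269 and 0.265 CPM under Scutellaria and 1.07, 0.891 and 0.903 CPM in the vehicle, fell by 1.82 (SE 0.34, adjusted p = 7.25e-06, edgeR).

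H1-2, the cluster linker histone that was not called under Coptis, had 3.28, 3.66 and 2.29 CPM under the high dose of Scutellaria and fell by 0.82 (SE 0.15, adjusted p = 3.28e-06, edgeR). All 3 values lay below the lowest vehicle library, at 4.65 CPM. H3C8 fell by 2.24 (SE 0.47), H2BC11 by 1.46 (SE 0.36), H3C10 by 1.44 (SE 0.25) and H2BC12 by 0.79 (SE 0.22) on the log2 scale. The 1 cluster gene that rose was H2BC15, with 1.95, 1.89 and 2.32 CPM under Scutellaria and 1.21, 1.59 and 0.998 CPM in the vehicle (log2 fold change 0.68 ± 0.20, adjusted p = 0.00308, edgeR). Of its annotated exon bases 7.2% lie opposite HIST1H2AK, a histone gene on the other strand.

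Of the variants, 5 fell and 1 rose under the high dose of Scutellaria. H3-3A had 160.4, 149 and 146 CPM, against 228, 224 and 239 CPM in the vehicle, and fell by 0.60 (SE 0.04, adjusted p = 2.82e-17, edgeR). H2AZ2 had 152, 136 and 151 CPM, against 206, 210.5 and 213 CPM in the vehicle, and fell by 0.52 (SE 0.04, adjusted p = 1.08e-16, edgeR). H2AX had 29.7, 32.7 and 27.7 CPM and fell by 0.71 (SE 0.06, adjusted p = 1.8e-14, edgeR). In these genes no library overlapped the vehicle.

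H2AZ1 fell by 0.29 (SE 0.06, adjusted p = 5.88e-05, edgeR) and H3-3B rose by 0.16 (SE 0.03, adjusted p = 1.87e-05, edgeR). The fall of H2AJ by 0.21 (adjusted p = 0.0281) was lost without vehicle replicate 2 (-0.13, adjusted p = 0.269) or the second Scutellaria library (-0.12, adjusted p = 0.268, edgeR). H1-10 had a log2 fold change of 0.11 ± 0.12 (adjusted p = 0.464, edgeR).

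Within the code number of Scutellaria, the high dose had 23 of 38 histone genes lower and 2 higher than the low dose, where 28.9% and 29.2% of all genes were (58.1% in all). The cluster median was -0.81. H2AC6 fell by 1.26 (SE 0.11), H2BC5 by 1.29 (SE 0.15), H2BC21 by 1.10 (SE 0.15) and H2AX by 0.94 (SE 0.06) on the log2 scale. At the medium dose 1 variant and no cluster gene was called against the vehicle (8.45% of all genes, 3.72% higher and 4.72% lower), and at the low dose likewise 1 variant and no cluster gene (2.72% of all genes, 1.71% lower). Of the 30 cluster genes 1 had an unadjusted p under 0.05 at each of these doses, and DESeq2 called 1 histone gene at each. H2AX rose by 0.23 at the low dose, a call lost without vehicle replicate 1 (0.13, adjusted p = 0.379, edgeR) or Scutellaria low replicate 1 or 3 (0.22, adjusted p 0.0624 and 0.0795).

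The responses to Coptis and Scutellaria were compared as the difference of their high against low dose effects, a comparison added after the values had been seen. Doses differ between the extracts, so the values stand side by side. Of the 38 genes 14 differed, 9 with a lower and 5 with a higher value under Coptis, where 33% and 31.2% of all genes differed in these directions (64.2% in all). H2AX differed by -0.93 ± 0.10 (adjusted p = 2.92e-12, edgeR), with -1.87 under Coptis and -0.94 under Scutellaria.

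H2BC5 differed by -1.10 ± 0.25 (adjusted p = 0.000434, edgeR) and H2BC21 by -0.96 ± 0.24 (adjusted p = 0.000502, edgeR), both further down under Coptis. H3-3A differed by 0.41 ± 0.06 (adjusted p = 1.27e-07, edgeR), with -0.13 under Coptis and -0.54 under Scutellaria. With library totals in place of TMM it differed by 0.09 and was not called (adjusted p = 0.187, edgeR). H3-3B differed by 0.27 ± 0.05 (adjusted p = 6.96e-07, edgeR), a direction that turned to -0.05 with library totals (adjusted p = 0.377). H2AC6, with falls of 1.51 and 1.26, was not called as different between the extracts.

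Under the high dose of Pinellia (500 µg/mL), 7 of the 38 genes rose and 1 fell against the vehicle, where 9.3% of all genes were called higher and 8.73% lower (18% in all). The 3 cluster genes called were all among the 6 known to give polyadenylated mRNAs, and the cluster median was 0.21, against 0.00 over all genes. With near-identical copies summed, 2 pairs outside the 6 were called higher as well. These were H3C14 with H3C15 (0.75, adjusted p = 0.0222, edgeR) and HIST2H2AA3 with HIST2H2AA4 (0.44, adjusted p = 0.0409, edgeR). H2AC6 had 13.4, 12.9 and 11.5 CPM, against 8.77, 8.33 and 8.65 CPM in the vehicle, and rose by 0.55 (SE 0.09, adjusted p = 5.88e-06, edgeR). H2BC12 had 3.58, 3.12 and 3.25 CPM, against 1.87, 2.28 and 1.57 CPM in the vehicle, and rose by 0.79 (SE 0.19, adjusted p = 0.00136, edgeR). H2BC21 had 5.84, 5.94 and 5.88 CPM and rose by 0.42 (SE 0.12, adjusted p = 0.00873, edgeR).

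In these 3 genes every Pinellia library lay above every vehicle library. H1-10 had 31.0, 39.1 and 43.5 CPM under Pinellia, against 20.2, 27.2 and 25.1 CPM in the vehicle, and rose by 0.64 (SE 0.12, adjusted p = 4.38e-05, edgeR), also without overlap. H3-3B rose by 0.15 (SE 0.03, adjusted p = 0.000596, edgeR). The fall of H2AZ2 by 0.15 was lost without the third Pinellia library (-0.10, adjusted p = 0.0965, edgeR), and the rise of H2AX by 0.20 without vehicle replicate 1 (0.10, adjusted p = 0.281) or the third Pinellia library (0.17, adjusted p = 0.0628). H2AZ1, H3-3A and H2AJ were not called, with values between -0.08 and 0.03.

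Against the low dose of Pinellia, 7 genes rose and 1 fell at the high dose, where 7.65% and 6.86% of all genes were (14.5% in all). H2AC6 rose by 0.55 (SE 0.09, adjusted p = 4.85e-06) and H2BC12 by 0.74 (SE 0.18, adjusted p = 0.00209), both by edgeR. H2BC21 rose by 0.44, a call lost without the third library of the low dose (0.36, adjusted p = 0.0565, edgeR). A further 4 calls were each lost without at least 1 library. At the medium and the low dose of Pinellia no histone gene was called against the vehicle by edgeR or by DESeq2, where 1.41% (0.916% higher) and 0.142% (0.00569% lower) of all genes were, and 5 and 2 of the 38 had an unadjusted p under 0.05.

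Wortmannin gave 4 higher and 2 lower histone genes against the vehicle, where 17.3% of all genes were called higher and 19.2% lower (36.5% in all). H2AC6 had 11.6, 9.84 and 11.6 CPM and rose by 0.37 (SE 0.09, adjusted p = 0.00116, edgeR). H2BC21 had 5.88, 6.68 and 5.71 CPM and rose by 0.46 (SE 0.12, adjusted p = 0.00132, edgeR). Neither overlapped the vehicle. The cluster median was 0.18, against 0.02 over all genes.

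H3-3A had 268, 266 and 265 CPM under wortmannin, against 228, 224 and 239 CPM in the vehicle, and rose by 0.21 (SE 0.04, adjusted p = 9.23e-05, edgeR). H3-3B, with 337, 352 and 349.9 CPM, rose by 0.14 (SE 0.03, adjusted p = 0.000244, edgeR). H2AZ1 had 121, 124 and 126 CPM, against 155, 151 and 147 CPM in the vehicle, and fell by 0.29 (SE 0.06, adjusted p = 0.000115, edgeR). H2AX fell by 0.17 (adjusted p = 0.0236), with libraries that overlapped, and lost the call without vehicle replicate 2 (-0.14, adjusted p = 0.112), vehicle replicate 3 (-0.09, adjusted p = 0.294) or wortmannin replicate 2 (-0.14, adjusted p = 0.0987, edgeR). H1-10, H2AZ2 and H2AJ were not called, with values between -0.03 and 0.07.

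Under the high dose of jujube (500 µg/mL), 7 of the 38 genes rose and none fell against the vehicle, where 8.18% of all genes were called higher and 9.1% lower (17.3% in all). H1-10 had 41.9, 38.3 and 35.7 CPM, against 20.2, 27.2 and 25.1 CPM in the vehicle, and rose by 0.67 (SE 0.12, adjusted p = 2.23e-05, edgeR). Every jujube library lay above every vehicle library. The cluster genes H2AC6 (0.34) and H2BC21 (0.40) were called as well. H2AC6 lost the call without the first jujube library (0.26, adjusted p = 0.0906, edgeR), and H2BC21 without the third (0.33, adjusted p = 0.0885) or without vehicle replicate 2 (0.37, adjusted p = 0.0558) or 3 (0.37, adjusted p = 0.0549).

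The call of H3-3B (0.09) under jujube was lost without any 1 of the 6 libraries compared (0.09 to 0.10, adjusted p 0.0612 to 0.126, edgeR). That of H2AX (0.17) was lost without vehicle replicate 1 (0.07, adjusted p = 0.496, edgeR) or jujube replicate 1 or 3 (0.14 and 0.17). That of H2AJ (0.23) was lost without any library but vehicle replicate 2 (0.18 to 0.25, adjusted p 0.0648 to 0.197, edgeR). The cluster median was 0.00. Against the low dose of jujube 4 genes rose and none fell at the high dose, where 7.4% of all genes were higher and 7.85% lower (15.2% in all). Of these H2AC6, H2BC21 and H1-10 were lost without replicate 2 of the low dose, which was high in RNAs without poly(A) tails (0.27, 0.32 and 0.35, adjusted p 0.0751, 0.0962 and 0.063, edgeR), and without some other libraries. No histone gene was called against the vehicle at the medium dose (0.364% of all genes, 3 of 38 with an unadjusted p under 0.05, 1 call by DESeq2) or the low dose (0.0114% of all genes, 2 of 38, no call by DESeq2).

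**Figure D4:**
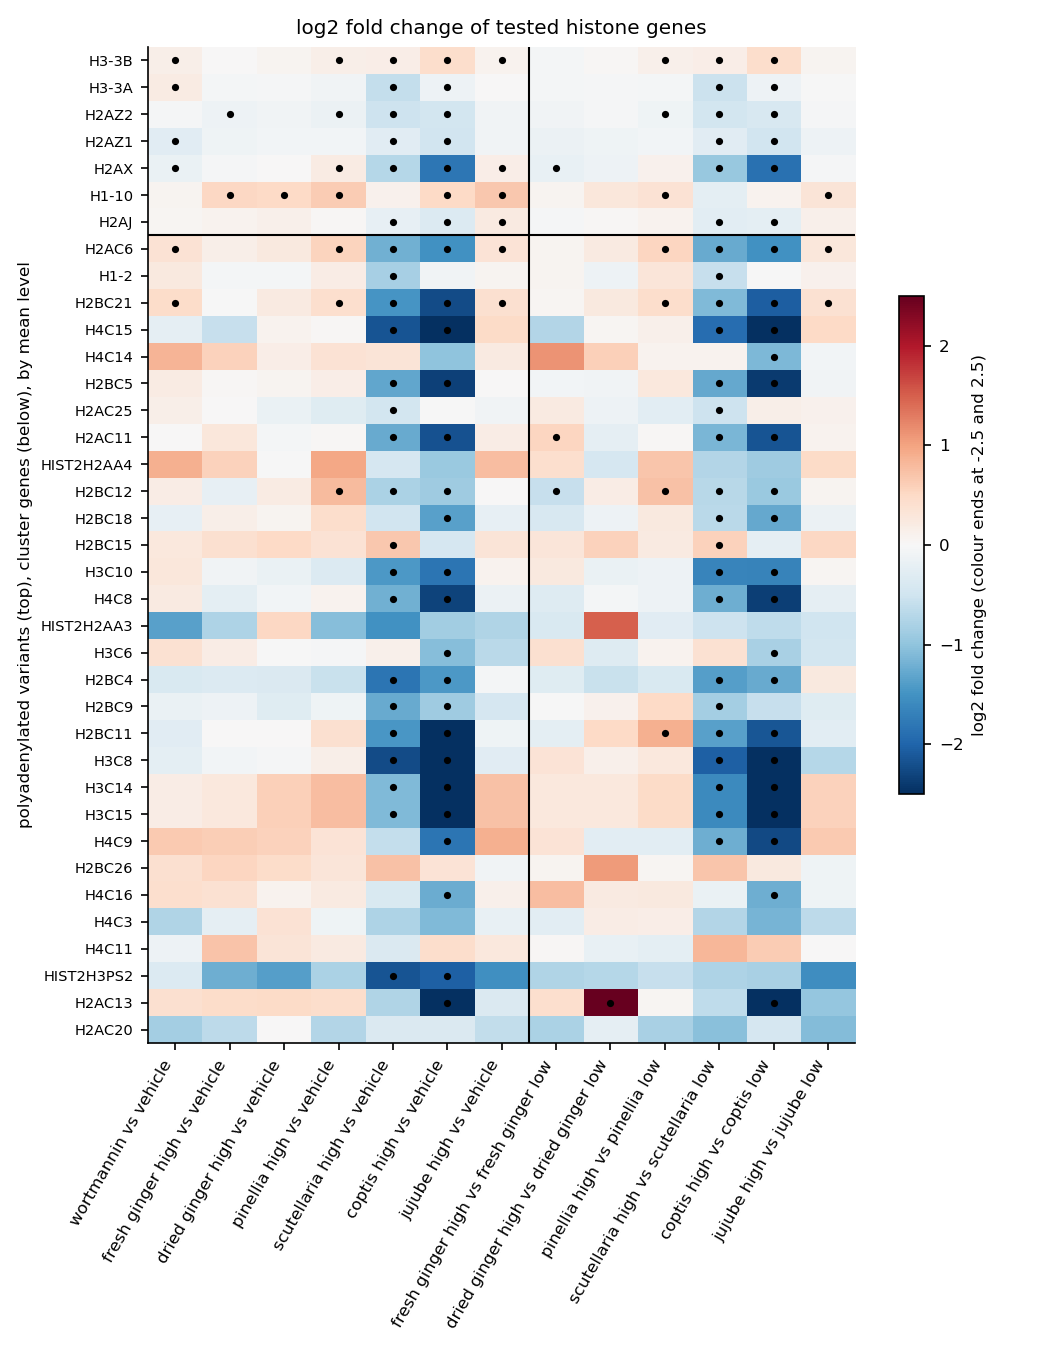
Log2 fold changes of tested histone genes in 13 comparisons, with variants above the horizontal line, cluster genes below it, and a dot on each value called by edgeR. The columns of Scutellaria and Coptis at the high dose hold 22 and 25 genes called lower against the vehicle, whereas the other high doses hold at most 1.

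The variant H1-10 was called higher than in the vehicle at the high doses of both gingers. Against the vehicle the high dose of fresh ginger gave 2 higher and 1 lower histone gene (9.12% and 10.2% of all genes, 19.3% in all) and the high dose of dried ginger 2 higher and none lower (7.76% and 9.2% of all genes, 17% in all). No cluster gene was called under either by edgeR, with 0 and 2 of the 30 at an unadjusted p under 0.05 and 3 and 2 histone genes of any class called by DESeq2. H1-10 had 30.9, 36.7 and 37.3 CPM under fresh ginger, against 20.2, 27.2 and 25.1 CPM in the vehicle, and rose by 0.52 (SE 0.12, adjusted p = 0.000834, edgeR). Under dried ginger it had 35.0, 32.8 and 35.9 CPM and rose by 0.51 (SE 0.12, adjusted p = 0.00119, edgeR). Every ginger library lay above every vehicle library. Against the low dose of dried ginger, its high dose had H1-10 higher by 0.28, which was not called (adjusted p = 0.101, edgeR). The fall of H2AZ2 by 0.13 under fresh ginger was lost without vehicle replicate 2 or 3 or the first ginger library, with adjusted p between 0.0531 and 0.0793.

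Between the high and the low dose of dried ginger 13.2% of all genes were called. H2AC13 was among them, at 0.205, 0.402 and 0.442 CPM at the high dose and 0, 0.114 and 0 CPM at the low dose. Its low dose lay at or under 3 counts in every library. Under fresh ginger 4 genes were called between the high and the low dose, where 23.3% of all genes were. H2AC11, a core H2A gene, had 3.03, 2.81 and 3.50 CPM at the high and 2.07, 2.41 and 1.90 CPM at the low dose, and rose by 0.55 (SE 0.15, adjusted p = 0.00432, edgeR). The calls of H2BC12 (-0.58) and H2AX (-0.18) were each lost on leaving out 1 library. H2BC12 lost the call without replicate 1 or 2 of the high or replicate 1 or 3 of the low dose (-0.45 to -0.56, adjusted p 0.0589 to 0.137, edgeR). H2AX lost it without replicate 2 of either dose (-0.17 and -0.14). Replicate 2 of the high dose was the library highest in RNAs without poly(A) tails.

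Dried and fresh ginger did not differ in any histone gene at the high, medium or low dose by edgeR or by DESeq2, where 1.42%, 0.0683% and 0.279% of all genes were called. At an unadjusted p under 0.05, 3, 1 and 6 of the 38 genes differed. The difference of their high against low dose effects gave no call by edgeR or DESeq2 either (0.814% of all genes, 5 of 38 at an unadjusted p under 0.05). The smallest adjusted p there was that of H2AC11 (-0.77, adjusted p = 0.0535, edgeR), which was called without dried ginger low replicate 1 (-0.90, adjusted p = 0.0229), fresh ginger high replicate 2 (-0.84, adjusted p = 0.0455) or fresh ginger low replicate 2 (-0.87, adjusted p = 0.0233). At the medium dose no histone gene was called against the vehicle under fresh (1.5% of all genes, 0.842% higher) or dried ginger (0.7%), and at the low dose H1-10 alone was called, under fresh ginger (0.46, adjusted p = 0.0099, edgeR, 7.94% of all genes, 4.38% lower), with none under dried ginger (0.0512% of all genes). The call was lost without vehicle replicate 1 (0.35, adjusted p = 0.127, edgeR) or fresh ginger low replicate 3 (0.39, adjusted p = 0.0701, edgeR). These comparisons with no call had 3 of 38 (fresh, medium), 2 of 38 (dried, medium) and 3 of 38 (dried, low) genes at an unadjusted p under 0.05 and no call by DESeq2.

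H1-10 was lowest in the vehicle of all 20 groups. Its mean was 24.2 CPM there, 25.4 CPM under wortmannin, and between 26.3 and 38.6 CPM under the 18 extract doses. Its log2 fold change against the vehicle was positive at all 18 extract doses, including 0.41 at the low dose of Coptis and 0.35 at the low dose of jujube, which were not called (adjusted p = 0.0951 and 0.356, edgeR). The code number differs between every extract and the vehicle and cannot be told apart from treatment here. Of its exon bases 22.9% lie opposite the antisense gene H1FX-AS1, and the sources used here do not say whether counting kept the 2 strands apart.

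The genes that act on histone mRNA and chromatin were followed as lists beside the histone genes. Of 29 genes of S phase and replication, all tested, 24 were lower and 4 higher under the high dose of Coptis (median log2 fold change -0.81), and 28 and 1 with library totals in place of TMM. Under the high dose of Scutellaria 27 were lower and none higher (median -0.60), and under wortmannin 28 were lower and none higher (median -0.47). Of all genes tested, 37.9% were lower and 37.2% higher under Coptis, 28.5% and 30.3% under Scutellaria, and 19.2% and 17.3% under wortmannin. UHRF1, which keeps DNA methylated at replication, fell by 2.84 under Coptis and 1.44 under Scutellaria. RRM2, a subunit of ribonucleotide reductase, fell by 1.61 under Coptis, 1.24 under Scutellaria and 0.70 under wortmannin, all called by edgeR.

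The cluster and the S phase medians were both lower under the high dose of Coptis than under that of Scutellaria. Both were lower there than under the medium dose of Coptis. Under wortmannin and the high doses of the gingers the S phase median was below 0 and the cluster median was not, as the plot of medians by treatment shows. Wortmannin had a cluster median of 0.18 beside an S phase median of -0.47. Of the 30 cluster genes 2 were called higher under wortmannin, where 17.3% of all genes were. Both gingers at the high dose had S phase medians of -0.18 (fresh, 22 of 29 lower) and -0.16 (dried, 20 of 29 lower) and cluster medians of 0.02 and 0.08. No cluster gene was called there, and 10.2% (fresh) and 9.2% (dried) of all genes were lower. The medium dose of Coptis had 29 of 29 S phase genes lower (median -0.57) and 10 of 30 cluster genes lower (median -0.60), where 20.2% of all genes were lower. All 10 genes of G2 and mitosis were lower under the high doses of Coptis and Scutellaria and under wortmannin, with medians of -1.15, -0.81 and -0.39. Under the high dose of jujube 6 of them were higher and none lower, where 8.18% of all genes were higher. No test compared the lists with each other.

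**Figure D5:**
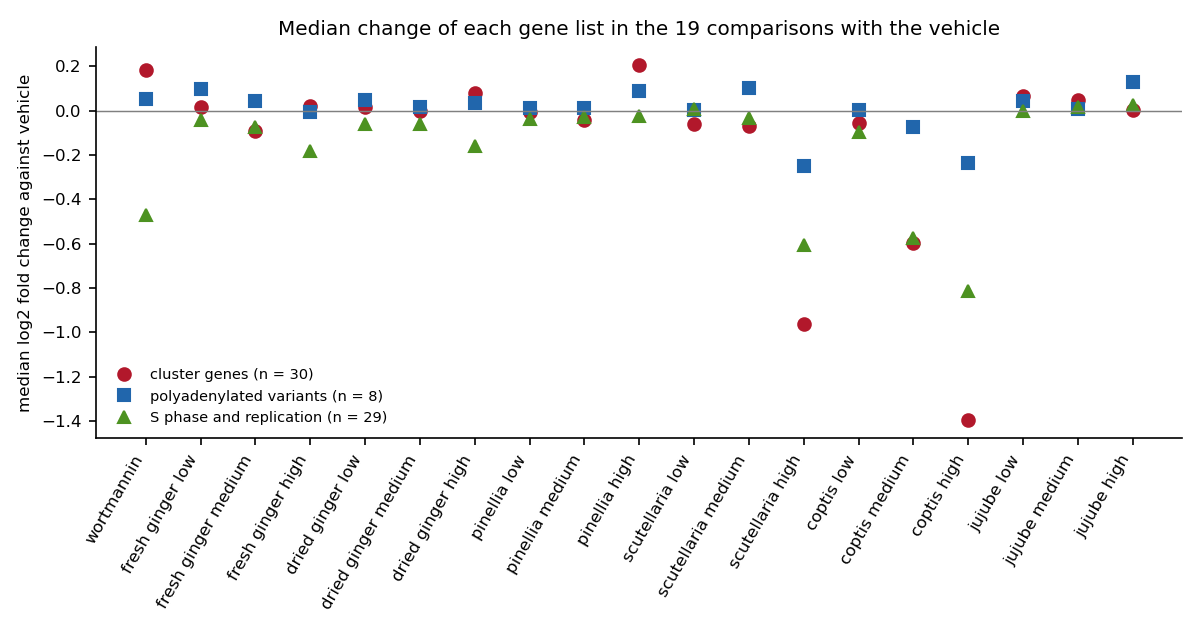
Median log2 fold change against the vehicle of the 30 tested cluster genes, the 8 tested variants and the 29 S phase genes for wortmannin and the 18 extract doses. The cluster median lies at -1.40 and -0.96 for the high doses of Coptis and Scutellaria and at 0.18 for wortmannin, where the S phase median lies at -0.47.

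Of 16 genes of histone mRNA transcription and 3' processing, 7 were higher and 8 lower under the high dose of Coptis, 3 and 10 under that of Scutellaria, and 1 and 8 under wortmannin. With library totals in place of TMM the split under Coptis was 4 higher and 11 lower. Of all genes tested, 37.2% were higher and 37.9% lower under Coptis, 30.3% and 28.5% under Scutellaria, and 17.3% and 19.2% under wortmannin. SLBP, the stem-loop binding protein, averaged 104 ± 3.78 CPM under Coptis and 57.3 ± 0.181 CPM in the vehicle (SD, n = 3 each), a log2 fold change of 0.86 ± 0.03 (adjusted p = 9.15e-29, edgeR). ZNF473, a zinc finger protein of the histone pre-mRNA processing complex, rose by 1.25 and HINFP, which activates H4 genes, by 1.05 under Coptis. These 3 kept their direction and their call with library totals. CSTF2, a cleavage factor, fell by 0.88 under Coptis.

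Under the high dose of Scutellaria HINFP rose by 0.66 and TUT7, which adds uridines to histone mRNA before decay, by 0.52, whereas SRRT fell by 0.56. ERI1, an exonuclease that trims the stem-loop end, fell by 0.39 under Scutellaria and 0.48 under wortmannin. Of 25 genes of histone chaperones and deposition, 7 were higher and 15 lower under Coptis (37.2% and 37.9% of all genes). Under Scutellaria 3 were higher and 17 lower (30.3% and 28.5% of all genes), and under wortmannin 3 and 14 (17.3% and 19.2%). With library totals 3 were higher and 20 lower under Coptis. ASF1B, a chaperone of newly made H3 and H4, fell by 2.19 under Coptis and 0.91 under Scutellaria, and CHAF1A, which deposits them at the fork, fell by 1.27 under Coptis and 0.49 under wortmannin.

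HJURP, which places the centromeric H3 variant, fell by 2.00 under Coptis and 0.79 under Scutellaria, and that variant, CENPA, fell by 1.29 under Coptis. MACROH2A1, an H2A variant with a macrodomain, fell by 0.18 under Scutellaria. Under Coptis it rose by 0.06 (adjusted p = 0.0251, edgeR), a direction that turned with library totals, where all 3 variants of that list were lower. Among 9 cell cycle inhibitors 6 were higher and 2 lower under Coptis (5 and 3 with library totals), where 37.2% and 37.9% of all genes were. Under Scutellaria 4 were higher and 4 lower (30.3% and 28.5% of all genes), and under wortmannin 4 and 1 (17.3% and 19.2%). CDKN1A, which encodes p21, rose by 1.52 under Coptis, 1.69 under Scutellaria and 0.37 under wortmannin, and CDKN2C fell by 3.20 under Coptis and 1.82 under Scutellaria.

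What the histone genes share upstream of their starts is shown for 3 genes that moved together under Coptis and Scutellaria. The 250 bases before the start come from RefSeq (GRCh38.p14), 5' to 3' on the gene's strand. Capitals mark CCAAT boxes, which read ATTGG on the other strand. They also mark TATAAA boxes, which read TTTATA there, and the H2B octamer ATTTGCAT, which reads ATGCAAAT there.
H2BC21: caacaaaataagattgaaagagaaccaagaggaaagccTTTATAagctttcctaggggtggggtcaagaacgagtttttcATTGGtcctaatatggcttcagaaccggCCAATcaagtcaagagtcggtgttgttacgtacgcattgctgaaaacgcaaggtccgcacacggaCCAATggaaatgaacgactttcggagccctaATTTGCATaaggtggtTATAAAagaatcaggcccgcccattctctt
H2AC6: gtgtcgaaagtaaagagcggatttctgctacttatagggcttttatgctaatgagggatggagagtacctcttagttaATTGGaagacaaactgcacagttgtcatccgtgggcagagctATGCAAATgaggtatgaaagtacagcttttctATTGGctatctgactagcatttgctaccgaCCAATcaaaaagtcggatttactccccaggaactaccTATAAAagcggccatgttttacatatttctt
H2AX: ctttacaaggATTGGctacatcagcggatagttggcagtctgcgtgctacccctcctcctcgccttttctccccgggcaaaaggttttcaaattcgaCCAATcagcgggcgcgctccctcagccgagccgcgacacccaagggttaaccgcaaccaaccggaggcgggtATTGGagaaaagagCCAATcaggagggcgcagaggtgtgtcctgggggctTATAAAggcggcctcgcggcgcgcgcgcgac

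The windows lie at chr1:149886683-149886932 on the minus strand for H2BC21, chr6:26123922-26124171 on the plus strand for H2AC6 and chr11:119095466-119095715 on the minus strand for H2AX. TATAAA stood at position -30 in H2BC21 and -31 in H2AC6 and H2AX, counted from the annotated start. Of the 90 histone genes 77 had a promoter in the table, which holds 250 bases before and 50 after the start. CCAAT was present in 83.6% of 61 cluster promoters and in 6 of 7 variant promoters, against 34.6% of all 35116 promoters. TATAAA was present in 65.6% of the cluster promoters and in 4 of 7 variant promoters, against 11.5% of all. ATTTGCAT was found in 14 of 18 H2B cluster promoters, in 26 of all 61 cluster promoters and in 1.77% of all promoters. AAACACA, an element known from H1 genes, was found in 6 of 6 H1 cluster promoters, in 9 of all 61 cluster promoters and in 5.64% of all promoters. Both strands were searched, the matches in the 3 windows shown do not overlap each other, and a match describes letters in the window alone.

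Some histone genes cannot be told apart by reads. H4C14 and H4C15 have the same coding sequence, as do H3C14 and H3C15, and HIST2H2AA3 and HIST2H2AA4. Under wortmannin H4C14 had 7.15, 4.92 and 1.80 CPM and H4C15 1.03, 4.02 and 5.78 CPM, yet their sum was 8.18, 8.95 and 7.59 CPM. H3C14 and H3C15 hold equal values in every library. Each pair is therefore given by its sum. For H4C14 with H4C15 it was 1.63, 2.05 and 1.82 CPM under the high dose of Coptis and 3.78, 3.92 and 4.57 CPM under that of Scutellaria, against 6.67, 6.54 and 7.23 CPM in the vehicle. Under the high dose of jujube it was 8.98, 8.79 and 8.94 CPM. In a fit with the copies summed, this pair fell by 1.88 under Coptis and 0.72 under Scutellaria. It rose by 0.39 under jujube (adjusted p = 0.0015, edgeR) and 0.27 under wortmannin (adjusted p = 0.0181, edgeR).

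The sum of H3C14 with H3C15 was 0.0879, 0.195 and 0.0889 CPM under the high dose of Coptis, against 0.653, 0.774 and 0.951 CPM in the vehicle. HIST2H2AA3 with HIST2H2AA4 gave 2.29, 1.86 and 1.33 CPM under Coptis and 2.25, 1.85 and 1.92 CPM under the high dose of Scutellaria, against 3.12, 3.21 and 3.95 CPM in the vehicle. All 3 pair sums lay below every vehicle library at the high doses of Coptis and Scutellaria. With the copies summed, H3C14 with H3C15 was called higher under the high doses of jujube (0.79, adjusted p = 0.0164, edgeR) and Pinellia (0.75, adjusted p = 0.0222, edgeR). Of the 38 tested genes 11 share exon bases with a gene on the other strand, H2AZ1 over 9.7%, H2BC18 over 5.5% and H3-3B over 3.5% of its exon bases, and HIST2H3PS2 lies over 99.5% within a processed transcript. The values of these genes may hold reads of their neighbours.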

How the data were processed

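RNA of 60 libraries was read in 100-base pairs after an mRNA library kit, per the labels' protocols, and poly(A) selection is not stated there. FastQC 0.11.9, Trim Galore 0.6.5, STAR 2.7.3a, RSEM 1.3.3 and the build GRCh38 are named in the submitters' processing notes, while parameters, annotation release and strand setting are not. The authors deposited expected counts per gene, of which 90.5% were whole numbers. They were rounded here, which moved a library total by at most 0.000224%. Columns were tied to samples through the description codes, and 0 columns of values were unused.

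The rounded counts went into edgeR 4.0.16 under R 4.3.3 (TMM factors, filterByExpr, quasi-likelihood F test on all 60 libraries with 40 residual degrees of freedom) with Benjamini-Hochberg adjustment over 17569 genes at 0.05. There were 28 comparisons (19 with the vehicle as baseline, 6 between high and low dose, 3 between dried and fresh ginger) and 2 differences of dose effects added after the values had been seen. CPM values use the TMM factors, and values per kilobase divide by the joined exons of GENCODE v29. The test was checked on simulated counts.

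Alternatives were DESeq2 1.42.0, library totals, RLE factors, no filter, the compared groups alone, a replicate block, leaving out each library, and cluster genes with a mean of at least 1 CPM. Summing near-identical copies and leaving out the 3 libraries highest in RNAs without poly(A) tails were added after the data had been seen. The replicate numbers were not shown to pair the libraries. Named genes were all tested variants, the 5 largest rises and falls of cluster genes called without overlap in wortmannin and the high doses, the 6 cluster genes with known polyadenylated mRNAs, and up to 4 genes with the smallest p of each other list, of which 1 gene is not reported here. H4C8 was added for its stem-loop letters, and other genes outside this rule were chosen after their values were seen. The histone genes and all lists were chosen with earlier results of these data known.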

Additional observations from a re-analysis of the deposited data

Results flagged for a closer look

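The difference between the high against low dose effects of Coptis and of Scutellaria passed the test in 14 of 38 histone genes, where 64.2% of all genes did. The test was edgeR's quasi-likelihood test with Benjamini-Hochberg adjustment over all genes. The genes reported here are given as Coptis minus Scutellaria on the log2 scale with its SE. Among the variants, H2AX differed by -0.93 ± 0.10 (adjusted p = 2.92e-12, edgeR), H3-3A by 0.41 ± 0.06 (adjusted p = 1.27e-07, edgeR) and H3-3B by 0.27 ± 0.05 (adjusted p = 6.96e-07, edgeR). H2AZ1 differed by -0.20 ± 0.09 (adjusted p = 0.0385, edgeR), and this call was lost on leaving out any 1 of 7 libraries (-0.16 to -0.20, adjusted p 0.0674 to 0.143), namely replicates 1 and 3 of the high and 2 and 3 of the low dose of Scutellaria, replicates 1 and 2 of the low and 3 of the high dose of Coptis.

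Among the cluster genes, H2BC5 differed by -1.10 ± 0.25 (adjusted p = 0.000434, edgeR), H2BC21 by -0.96 ± 0.24 (adjusted p = 0.000502, edgeR), H2AC11 by -1.02 ± 0.29 (adjusted p = 0.00206, edgeR) and H3C6 by -1.20 ± 0.39 (adjusted p = 0.00627, edgeR). H3C6 had -0.82 under Coptis and 0.38 under Scutellaria. H2AC13 differed by -4.78 ± 1.64 (adjusted p = 0.00964, edgeR), a fitted value that is no bound, because its counts were 0 in the 3 libraries of the high dose of Coptis, 6, 7 and 4 at its low dose, 2, 6 and 4 at the high dose of Scutellaria and 3, 10 and 3 at its low dose.

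H4C8 differed by -1.11 ± 0.42 (adjusted p = 0.0272, edgeR), a call lost without Scutellaria low replicate 1 (-1.01), Scutellaria high replicate 2 (-0.95) or Coptis high replicate 2 (-0.78). H2AC25 differed by 0.65 ± 0.22 (adjusted p = 0.00841, edgeR), lost without Scutellaria low replicate 3 (0.48). H1-2 differed by 0.57 ± 0.21 (adjusted p = 0.0133, edgeR), lost without Scutellaria high replicate 3 (0.39). H2BC15 differed by -0.81 ± 0.31 (adjusted p = 0.0199, edgeR), lost without Scutellaria low replicate 2, Scutellaria high replicate 3, Coptis high replicate 2 or Coptis low replicate 3 (-0.60 to -0.72). With library totals in place of TMM, H3-3A, H2AC25 and H1-2 also lost the call, at 0.09, 0.34 and 0.26.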

How the results depend on the processing

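At the high dose of Coptis 25 of the 28 called histone genes remained called without each single library, at its medium dose 10 of 16, and at the high dose of Scutellaria 19 of 24, but at the high dose of jujube 2 of 7. With no filter the number of called histone genes was 8 against 3 (fresh ginger high against vehicle), 2 against 0 (fresh medium), 2 against 1 (fresh low), 1 against 0 (dried medium, dried low, Pinellia low and Coptis low), 3 against 0 (Pinellia medium), 3 against 1 (Scutellaria medium and low), 4 against 0 (jujube medium), 2 against 0 (jujube low), 7 against 4, 5 against 2 and 8 against 4 (high against low dose of fresh ginger, dried ginger and jujube), 2 and 1 against 0 (dried against fresh, high and low), and 3 against 0 (the difference of dose effects between dried and fresh ginger). The calls gained without the filter were of genes that the filter had kept, with nearly the same log2 fold changes and smaller adjusted p. H1-10 at the medium dose of jujube had 0.447 (adjusted p = 5.41e-12, edgeR) without the filter and 0.449 (adjusted p = 0.0737, edgeR) with it. With the compared groups alone the number of called histone genes was 5 for fresh ginger high, 2 for Scutellaria medium, 1 for Coptis low and jujube medium, and 7, 5 and 7 for high against low of fresh ginger, Pinellia (8 in the fit of all libraries) and jujube. DESeq2 gave 1 for jujube medium and 1 for dried ginger high against low, and library totals gave 4 for dried ginger high, 2 for Scutellaria medium and 4 for dried ginger high against low. Without the 3 libraries highest in RNAs without poly(A) tails, an alternative chosen after seeing the data, high against low gave 2 for fresh ginger and 1 for jujube, and the difference between the gingers gave 1, H2AC11 (-0.97, adjusted p = 0.021, edgeR). The cluster median was -1.22 (compared groups alone), -0.79 (copies summed) and -1.20 (at least 1 CPM) under Scutellaria high, -1.71 (library totals) under Coptis high, and 0.0747 (compared groups alone) and 0.0809 (at least 1 CPM) under jujube high. With library totals the difference between Coptis and Scutellaria turned for H3-3B (-0.045, adjusted p = 0.377, edgeR), H2AZ2 (-0.26, adjusted p = 8.27e-05, edgeR) and H2AJ (-0.30, adjusted p = 0.0261, edgeR), where the lower TMM factors of Coptis no longer apply.

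Leaving out 1 library gave 0 to 3 calls for fresh ginger low, 2 to 4 for dried ginger high, 0 to 1 for Pinellia medium, 0 to 2 for Scutellaria medium, 0 to 1 for Scutellaria low and 3 to 6 for jujube high, and for high against low 2 to 4 in fresh ginger, 5 to 6 in Pinellia and 1 to 4 in jujube, and 0 to 1 for the difference between the gingers. The cluster medians then ranged over 0.11 to 0.20 (wortmannin), 0.0337 to 0.127 (fresh ginger high), 0.0132 to 0.157 (dried ginger high), 0.11 to 0.24 (Pinellia high), -1.08 to -0.93 (Scutellaria high), -1.60 to -1.31 (Coptis high) and -0.00777 to 0.0872 (jujube high). With a replicate block no call was lost and 2 were gained, H2AZ1 between high and low fresh ginger (-0.15, adjusted p = 0.0407, edgeR) and H2AC11 in the difference between the gingers (-0.77, adjusted p = 0.0487, edgeR). Libraries with the same replicate number deviated together with a mean correlation of 0.0077, against -0.0038 for others. For 28 of 60 libraries, the mean correlation with the libraries of other groups was highest for their own replicate number. The low counts of most cluster genes limit what single genes can show.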
